A study of Mus musculus with 9 samples.

Results

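The regional homeobox genes examined here are those LIM (Lhx, Isl, Lmx1), POU, Otx, Gbx, Irx, Nkx, En, Barhl and Emx genes, with Six3 and its relatives, whose symbols match the family names with a single digit for each position, leaving out Lhx6 and Nkx2-1. This rule took 45 of the 24624 genes in the table. The genes were chosen by name and not by level, and they were examined for signs of a non-cortical regional identity. RNA-seq was performed on cortices of mice at postnatal day 0 (P0), with polyA-selected RNA from the pair of hemispheres of each mouse. There were 3 Fezf2+/+ libraries (bc201, bc202 and bc203), 4 Fezf2-/- libraries (bc204, bc205, bc206 and bc207) and 2 Fezf2-/-; Fezf2-EnR libraries (bc208 and bc209, called Fezf2-EnR below), with no other treatment. The Fezf2- allele is a null allele with a placental alkaline phosphatase (PLAP) gene knocked into Fezf2. Fezf2-EnR is a bacterial artificial chromosome transgene under Fezf2 regulatory sequence, which encodes the Engrailed repressor domain fused to the DNA-binding domain of FEZF2, on the Fezf2-/- background. All pups came from Fezf2+/- by Fezf2+/-; Fezf2-EnR crosses, in 3 litters: m1 (bc201, bc202, bc205 and bc206), m2 (bc203 and bc209) and m3 (bc204, bc207 and bc208). No litter held all 3 genotypes.

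The libraries held 18716575 to 25127623 reads. Values below are read counts divided by a size factor for each library (normalized read counts), in which 1 read was worth close to 1. Fezf2 itself was at 979 to 1232 in Fezf2+/+, 193 to 242 in Fezf2-/- and 907 to 1001 in Fezf2-EnR, where the transgene carries Fezf2 sequence. No library went against its label, but the Fezf2+/+ and Fezf2-EnR ranges overlapped, so Fezf2 could not tell those genotypes apart. The tissue label was met: the 8 markers of cortical projection neurons summed to between 79257 and 98690 in every library. The libraries bc204 and bc208 stood apart in 6 striatal markers, which summed to 2404 and 1932 there against 811 to 1592 in the other 7 libraries. With bulk RNA, fewer cells of a type and less RNA per cell cannot be told apart.

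Homeodomain transcription factors divide the developing brain into regions. Emx1 and Emx2 are expressed in the progenitors and neurons of the dorsal telencephalon, Lhx2 gives cortical progenitors their cortical rather than hem fate, and Otx1 is found in ventricular zone cells and then in deep-layer projection neurons. The class III POU genes Pou3f1, Pou3f2 and Pou3f3 are expressed in migrating and upper-layer cortical neurons. Isl1, Six3, Lhx8 and Gbx1 belong to the subpallium, where Isl1 and Six3 act in striatal neurons and Lhx8 in cholinergic neurons. Lhx1, Lhx5, Lhx9, Barhl2 and Lmx1a are known from Cajal-Retzius cells, the cortical hem or the thalamic eminence, while the Irx genes, Gbx2, Otx2 and Pou4f1 mark diencephalic territories and the En genes, Lmx1b, Lhx3 and Lhx4 more caudal ones. Most LIM homeodomain proteins work with Ldb cofactors, and Engrailed and Six3 recruit Groucho (TLE) co-repressors.

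The promoters of the Emx pair and of Isl1 and Six3 are shown. Emx1 was the only member that passed the test, and Emx2 is its closest relative. Isl1 and Six3 were the 2 tested members highest in bc204 and next in bc208, an order that 6 members had. Each promoter shown runs from 250 bases before to 50 after the start given in RefSeq (GRCm38.p6, each on the strand of its gene). For Emx1, Emx2 and Six3 this window lies inside the gene as annotated in GENCODE. There these genes begin at 85187438, 59458372 and 85613608. The positions are chr6:85187681-85187980 (plus strand) for Emx1, chr19:59458440-59458739 (plus strand) for Emx2, chr13:116309639-116309938 (minus strand) for Isl1 and chr17:85620584-85620883 (plus strand) for Six3. Capitals mark the homeodomain core TAATTA, which reads the same on both strands, and the CCAAT box on either strand (CCAAT or ATTGG).
Emx1: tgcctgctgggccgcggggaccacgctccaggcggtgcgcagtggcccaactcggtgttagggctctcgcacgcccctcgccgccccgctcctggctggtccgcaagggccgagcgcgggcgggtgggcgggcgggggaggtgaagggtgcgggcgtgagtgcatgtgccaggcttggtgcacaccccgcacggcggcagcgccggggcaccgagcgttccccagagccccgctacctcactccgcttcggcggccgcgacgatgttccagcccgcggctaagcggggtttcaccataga
Emx2: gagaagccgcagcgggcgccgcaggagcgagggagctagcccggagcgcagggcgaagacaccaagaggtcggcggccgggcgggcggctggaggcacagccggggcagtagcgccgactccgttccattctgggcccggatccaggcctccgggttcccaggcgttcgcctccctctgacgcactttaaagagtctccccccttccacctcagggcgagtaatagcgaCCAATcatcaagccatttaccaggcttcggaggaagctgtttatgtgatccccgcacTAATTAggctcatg
Isl1: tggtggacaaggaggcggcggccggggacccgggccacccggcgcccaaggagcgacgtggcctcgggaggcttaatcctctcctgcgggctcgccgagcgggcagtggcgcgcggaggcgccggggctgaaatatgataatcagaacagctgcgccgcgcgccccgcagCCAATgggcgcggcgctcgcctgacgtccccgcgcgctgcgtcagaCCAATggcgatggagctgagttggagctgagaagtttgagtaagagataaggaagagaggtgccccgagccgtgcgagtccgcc
Six3: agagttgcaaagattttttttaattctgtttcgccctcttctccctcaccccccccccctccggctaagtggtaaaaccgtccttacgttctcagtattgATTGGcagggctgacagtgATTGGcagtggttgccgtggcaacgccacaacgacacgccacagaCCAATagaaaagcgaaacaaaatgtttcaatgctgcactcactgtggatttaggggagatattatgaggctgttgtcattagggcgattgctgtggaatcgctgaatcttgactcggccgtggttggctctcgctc

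The Emx1 promoter held neither motif and 37 CG dinucleotides, whereas the Emx2 promoter held 1 TAATTA and 1 CCAAT, which did not overlap, and 26 CG dinucleotides. The Isl1 promoter held 2 CCAAT boxes and 37 CG dinucleotides and the Six3 promoter 3 CCAAT boxes and 14 CG dinucleotides, against a median of 7 CG over all 32851 promoters. The promoter of Lhx8, an untested member with the same library order as Isl1 and Six3, is not shown. It held neither motif and 4 CG dinucleotides. Of all promoters of this length, 5.29% held TAATTA, 37.4% held CCAAT and 1.74% held the POU octamer ATGCAAAT (or ATTTGCAT), which none of the 41 promoters listed for 32 of the members held. These matches are a description of the letters in this window and say nothing of binding.

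The members fell into abundant cortical genes and genes near the floor of detection. Of the 45, 21 had a mean of at least 10 over the 9 libraries and were tested, and 24 were below it, with means from 0.242 (Lhx3) to 6.29 (Lhx8). Per kb of exon, the mean levels in Fezf2+/+ ran in the order Pou3f3 (1311), Pou3f1 (702), Pou3f2 (687), Lhx2 (644), Pou6f1 (485), Emx1 (254), Emx2 (90.3), Otx1 (66.1), Pou3f4 (51.0), Pou2f1 (39.3) and Pou2f2 (29.6), all as normalized read counts per kb. The Fezf2+/+ ranges of Pou3f1 (682 to 723), Pou3f2 (584 to 795) and Lhx2 (605 to 682) touched or overlapped, so these neighbours did not differ beyond their spread, and the same held for Pou3f4 (42.0 to 56.2) and Pou2f1 (34.1 to 43.9). Pou3f3, Emx1, Emx2 and Otx1 did not overlap with the gene next to them in that order.

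All 7 members of the cortical group and 6 of the 7 broadly expressed genes (5 POU genes, Six4 and Six5) were tested. Of the other groups, 4 of 5 Cajal-Retzius and cortical hem genes, 2 of 4 subpallial genes, 1 of 7 diencephalic and hypothalamic genes (Irx1), 1 of 7 midbrain, hindbrain and spinal cord genes (Nkx2-2, which is also expressed in oligodendrocyte precursors) and 0 of 8 genes known mostly from outside the brain reached the mean of 10. The 8 last, which include Nkx2-3, Pou2f3, Six2, Pou5f2, Nkx6-3 and Pou5f1, were under 10 in every library.

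**Figure D1:**
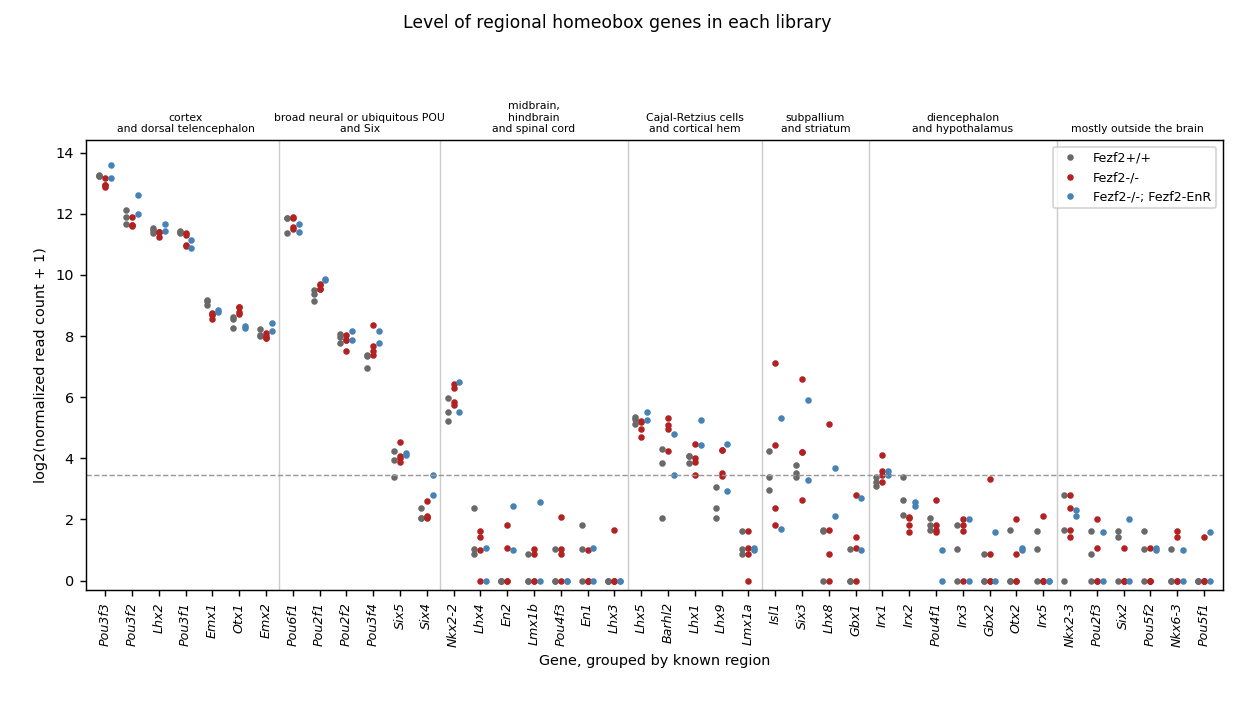
Level of 42 of the 45 genes in each library, as log2(normalized read count + 1), with 1 point per library coloured by genotype and genes grouped by the region they are known from. The broken line is a normalized read count of 10. The 7 cortical genes lie far above it in all 9 libraries, and Isl1, Six3 and Lhx8 are spread most widely, with Isl1 at 139 in bc204 and 2.19 in bc209.

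To find regional homeobox genes that depend on Fezf2, the Fezf2-/- cortices were compared with Fezf2+/+ cortices. A single member passed the test. Emx1, the dorsal telencephalic factor, fell to 0.739-fold of its Fezf2+/+ level. At an adjusted p under 0.05 (limma), 1 of the 21 members tested was called, against 0.858% of all 16197 genes tested (139 genes). Of the 21, 11 had a higher and 10 a lower fitted value in Fezf2-/-, with a median log2 fold change of 0.00, the same as over all genes tested (0.00).

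Emx1 (chr6, 85187438 to 85204462, plus strand of GRCm38) was at 512, 579 and 571 in Fezf2+/+, at 428, 422, 376 and 409 in Fezf2-/- and at 460 and 445 in Fezf2-EnR. Every Fezf2-/- library was below every Fezf2+/+ library, and both Fezf2-EnR libraries lay between the groups. The means were 554 ± 36.5 (SD, n = 3), 409 ± 23.0 (SD, n = 4) and 452 ± 10.8 (SD, n = 2). The log2 fold change in Fezf2-/- was -0.44 (SE 0.08, limma, adjusted p = 0.0296). The exact two-sided permutation test over the 7 libraries gave p = 0.029, the smallest that 35 splits allow. Otx1, Pou2f1 and Lhx9, which did not pass the limma test, gave the same permutation p, so it does not set Emx1 apart. The call rested on all 7 libraries, since it was no longer made when any Fezf2+/+ or Fezf2-/- library was left out (limma, adjusted p = 0.0547 to 0.188, log2 fold change -0.49 to -0.40), and without bc204 and bc208 it was -0.46 (limma, adjusted p = 0.058). Within litter m1 alone the log2 fold change was -0.45 (limma, adjusted p = 0.0838). The 10 markers of GABAergic interneurons summed to 8420 to 8886 in Fezf2+/+, 11138 to 11712 in Fezf2-/- and 8657 to 9598 in Fezf2-EnR. Over the 10 markers the median difference of Fezf2-/- from Fezf2+/+ was 0.48 on the log2 scale, with 0 of 10 called and none at 0, and their part in the Emx1 difference was not tested.

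For Emx1 in Fezf2-EnR, the log2 fold change was 0.15 (SE 0.09) against Fezf2-/- (limma, adjusted p = 0.42) and -0.29 (SE 0.09) against Fezf2+/+ (limma, adjusted p = 0.16). Neither passed the test, so the Fezf2-EnR level was set apart from neither of the other genotypes. Emx2, its relative, which overlaps the antisense gene Emx2os, was at 297, 256 and 260 in Fezf2+/+, 276, 253, 241 and 243 in Fezf2-/- and 285 and 344 in Fezf2-EnR. Its Fezf2+/+ and Fezf2-/- values overlapped (log2 fold change -0.10, SE 0.10, limma, adjusted p = 0.782).

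Otx1, which is expressed in deep-layer projection neurons, went the other way without passing the test. It was at 392, 309 and 373 in Fezf2+/+, 424, 439, 497 and 495 in Fezf2-/- and 305 and 321 in Fezf2-EnR. The Fezf2-/- libraries were above all the others, and the Fezf2-EnR values lay at the lower end of the Fezf2+/+ values or just below it. The log2 fold change was 0.38 (SE 0.10, limma, adjusted p = 0.173) in Fezf2-/- against Fezf2+/+ and -0.56 (SE 0.12, limma, adjusted p = 0.0621) in Fezf2-EnR against Fezf2-/-. These comparisons share the Fezf2-/- libraries. With DESeq2 on recovered reads, the latter was called (adjusted p = 0.00248).

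**Figure D2:**
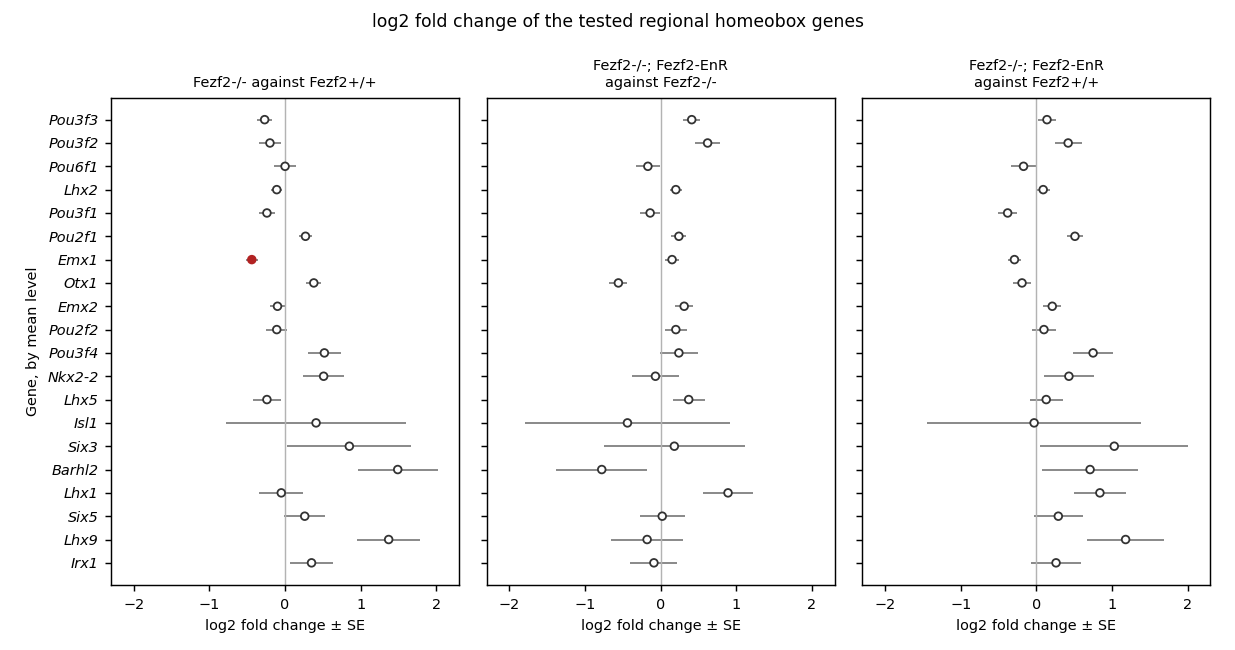
log2 fold change (x axis, with its SE as bars) of 20 of the 21 tested members, ordered by mean level, in the 3 comparisons. A filled point passed the limma test at an adjusted p under 0.05 and open points did not. Only Emx1 in Fezf2-/- against Fezf2+/+ is filled, and the bars are widest for Isl1.

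Of the 21 tested members, 8 had an unadjusted p under 0.05 in Fezf2-/- against Fezf2+/+, against 10.8% of all genes, and in 7 the groups did not overlap, against 13.0% of all genes. They include Emx1 and Pou3f3 (lower) and Otx1, Pou2f1, Pou3f4 and Lhx9 (higher). Apart from Emx1, none passed the adjusted test, and DESeq2 called Emx1 alone, against 1.95% of all genes with an adjusted p.

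Among the POU genes, Pou2f1, the ubiquitous octamer factor Oct1, was at 662, 566 and 729 in Fezf2+/+, 747, 739, 822 and 828 in Fezf2-/- and 919 and 930 in Fezf2-EnR. The 3 genotypes did not overlap, with Fezf2-EnR highest. Against Fezf2+/+, it had a log2 fold change of 0.27 (SE 0.09, limma, adjusted p = 0.29) in Fezf2-/- and 0.51 (SE 0.11, limma, adjusted p = 0.0963) in Fezf2-EnR. Its exons overlap those of Cd247, and how overlapping reads were counted is not given in the sources used here.

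Pou3f4, a POU factor of the developing striatum and inner ear, was at 161, 123 and 164 in Fezf2+/+, 329, 204, 183 and 164 in Fezf2-/- and 218 and 287 in Fezf2-EnR. The highest Fezf2+/+ and the lowest Fezf2-/- value were the same after rounding, and bc204 was far above the rest of its group. Its log2 fold change was 0.52 (SE 0.22, limma, adjusted p = 0.43), and 0.30 without bc204, where it did not pass the test either.

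Lhx9, a LIM factor of the thalamic eminence, was at 4.22, 7.36 and 3.16 in Fezf2+/+, 18.1, 9.81, 10.4 and 18.3 in Fezf2-/- and 20.9 and 6.56 in Fezf2-EnR. The Fezf2-/- values were all above the Fezf2+/+ values, at a level of few reads. Its log2 fold change was 1.37 (SE 0.42, limma, adjusted p = 0.255). For Lhx9 it was 0.73 with litter as a block and 0.75 in the libraries of litter m1, neither of which passed the test. Barhl2, which is expressed with Lhx9 in that region, was at 13.5, 18.9 and 3.16 in Fezf2+/+, 33.1, 39.2, 17.7 and 29.9 in Fezf2-/- and 26.9 and 9.83 in Fezf2-EnR. These groups overlapped, and Barhl2 did not pass the test. The summed level of the 4 Cajal-Retzius markers was 4452 to 7394 in Fezf2+/+ and 5674 to 6815 in Fezf2-/-, with 0 of the 4 called. Most of this sum was Reln, at 4108 to 6986 in Fezf2+/+ and 5285 to 6411 in Fezf2-/-. The markers differed in direction, with log2 fold changes of -0.28 for Trp73, -0.22 for Ebf3, -0.03 for Reln and 0.26 for Calb2.

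The other Cajal-Retzius members were close in Fezf2+/+ and Fezf2-/-. Lhx5 was at 38.0, 40.0 and 33.7 in Fezf2+/+ and 25.1, 36.0, 35.5 and 29.9 in Fezf2-/-. Lhx1 was at 13.5, 15.8 and 15.8 in Fezf2+/+, 21.1, 15.2, 13.6 and 9.97 in Fezf2-/- and 36.8 and 20.8 in Fezf2-EnR. The 2 Fezf2-EnR values of Lhx1 were above all Fezf2+/+ values, with a log2 fold change of 0.84 (SE 0.34, limma, adjusted p = 0.222). It was 0.44 without bc208, 1.24 without bc209 and 0.44 without bc204 and bc208, and passed the test in none of these.

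The cortical genes of highest level had small differences between Fezf2-/- and Fezf2+/+ that did not pass the test. Pou3f3, the highest, was lower in every Fezf2-/- library than in every Fezf2+/+ library (log2 fold change -0.27, SE 0.10, limma, adjusted p = 0.344). Pou3f2 overlapped between the groups (log2 fold change -0.20, SE 0.15, limma, adjusted p = 0.682). Lhx2 was at 2833, 2660 and 2997 in Fezf2+/+ and 2698, 2679, 2420 and 2725 in Fezf2-/- (log2 fold change -0.11, SE 0.07, limma, adjusted p = 0.669). Pou3f1, known from subcerebral and callosal neurons, was at 2624, 2782 and 2704 in Fezf2+/+ and 2006, 2550, 2676 and 1985 in Fezf2-/- (log2 fold change -0.24, SE 0.11, limma, adjusted p = 0.474). Within Fezf2-/-, the 2 lower values of Pou3f1 were the 2 libraries of litter m3, and the Fezf2-EnR library of that litter, bc208, was at 1898. Of the broadly expressed genes, Pou6f1 (log2 fold change 0.00, SE 0.14) and Pou2f2 (log2 fold change -0.11, SE 0.14) overlapped between the groups.

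To see which of these genes the repressor fusion shifts, Fezf2-EnR was compared with Fezf2-/-. No member passed the limma test, in which 0.766% of all genes were called (124 genes). By DESeq2, 3 of the 13 members that had an adjusted p were called, against 3.56% of all genes with an adjusted p. They were Pou3f2 and Pou3f3 (higher) and Otx1 (lower). Of the 21 members, 7 had an unadjusted p under 0.05 in limma, against 16.9% of all genes, and the groups did not overlap in 8, against 24.6%. The 8 were Emx1, Emx2, Lhx2, Lhx5, Pou2f1, Pou3f2 and Pou3f3 (higher) and Otx1 (lower). The median log2 fold change was 0.15 over the 21 members and 0.00 over all genes tested.

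Pou3f2 (Brn2), a factor of upper-layer neurons, was at 3814, 3262 and 4443 in Fezf2+/+, 3184, 3071, 3842 and 3192 in Fezf2-/- and 4094 and 6322 in Fezf2-EnR. The 2 Fezf2-EnR libraries were above all Fezf2-/- libraries and far apart from each other, with bc209 the highest of all 9. The log2 fold change against Fezf2-/- was 0.62 (SE 0.17, limma, adjusted p = 0.133). It was 0.93 without bc208 (limma, adjusted p = 0.0131) and 0.31 without bc209 (limma, adjusted p = 0.759), which in each case leaves 1 Fezf2-EnR library that is assumed to vary like the other groups.

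Pou3f3 (Brn1) had the same order. It was at 9613, 9601 and 9934 in Fezf2+/+, 7830, 7844, 9223 and 7462 in Fezf2-/- and 9235 and 12371 in Fezf2-EnR. The library bc208 was just above the highest Fezf2-/- value and below all Fezf2+/+ values, and bc209 was above all others. The log2 fold change was 0.41 (SE 0.11, limma, adjusted p = 0.139) against Fezf2-/-, 0.62 without bc208 (limma, adjusted p = 0.0122) and 0.20 without bc209. In bc209 the summed cortical projection neuron markers were 98690, the highest of the 9 libraries, and 80731 in bc208, and their part in these differences was not tested.

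**Figure D3:**
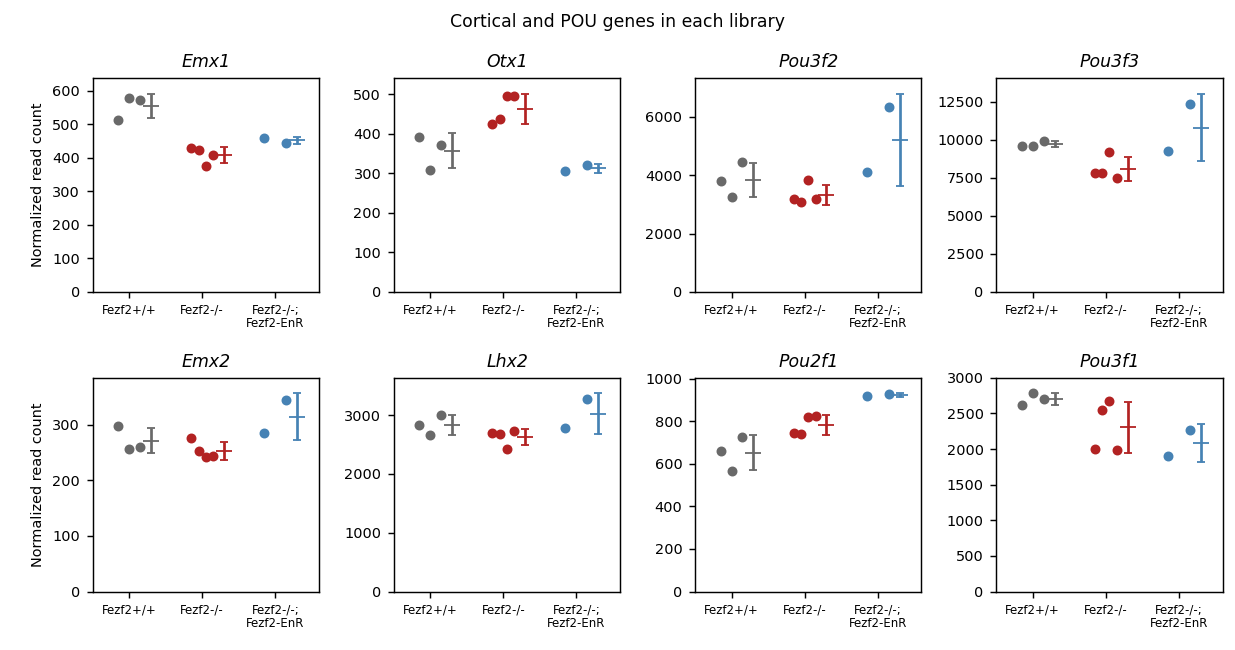
Normalized read counts of 8 cortical and POU genes, with 1 point per library and the mean ± SD of each genotype beside the points (n = 3, 4 and 2). Emx1 is lower in the 4 Fezf2-/- libraries than in the 3 Fezf2+/+ libraries, Otx1 is highest in Fezf2-/-, and for Pou3f2 and Pou3f3 the 2 Fezf2-EnR libraries lie far apart.

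Fezf2-EnR was also compared with Fezf2+/+. No member passed the limma test, in which 0.117% of all genes were called (19 genes). DESeq2 called 1 of 11 members that had an adjusted p, Pou2f1 (adjusted p = 0.00344), against 5.58% of all genes with an adjusted p. At an unadjusted p under 0.05, limma gave 8 of 21 members against 19.3% of all genes, and 7 members did not overlap between the groups, against 34.6% of all genes. They include Irx1, Lhx1, Pou2f1 and Pou3f4 (higher) and Emx1 and Pou3f1 (lower). For Pou3f4 the log2 fold change was 0.75 (SE 0.26, limma, adjusted p = 0.177) and for Pou3f1 -0.38 (SE 0.13, limma, adjusted p = 0.179). With 2 libraries, the spread of the Fezf2-EnR group was taken largely from the other genotypes.

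Apart from Nkx2-2 and Irx1, the genes of caudal and diencephalic regions were under 10 in every library. Nkx2-2 was at 36.3, 44.2 and 62.2 in Fezf2+/+, 77.3, 56.7, 52.1 and 84.7 in Fezf2-/- and 88.6 and 44.8 in Fezf2-EnR. The 3 genotypes overlapped, and its difference between Fezf2-/- and Fezf2+/+ did not pass the test (log2 fold change 0.51, SE 0.27, limma, adjusted p = 0.563). En1, of the midbrain and hindbrain, was at 2.53, 1.05 and 0 in Fezf2+/+, 1.0, 0, 0 and 0 in Fezf2-/- and 0 and 1.09 in Fezf2-EnR. En2 was at 0 in all 3 Fezf2+/+ libraries, at 0 to 2.49 in Fezf2-/- and at 1.0 and 4.37 in Fezf2-EnR. In a library, 3 reads were worth 2.49 to 3.28, so En1 and all but 1 value of En2 lay at or under the level that a count of 0 allows, counting error only.

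The En reads bear on the transgene as well, since an Engrailed repressor domain is part of it. Which En gene its sequence came from is not given in the sources used here, so En values in bc208 and bc209 are not read as endogenous. Lmx1b, which acts in serotonergic and dopaminergic neurons, was at 4.98 in bc208 and at most 1.04 elsewhere. Lhx3, of motor neurons, was above 0 in 1 library (2.18 in bc205).

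Of the diencephalic genes, Irx1 was at 7.60, 8.42 and 9.49 in Fezf2+/+, 11.1, 16.3, 8.34 and 9.97 in Fezf2-/- and 10.9 and 9.83 in Fezf2-EnR. The Fezf2+/+ and Fezf2-/- values overlapped. Otx2, of forebrain and midbrain outside the cortex, was at most 3.01, Irx5 at most 3.32, Irx3 at most 3.01 and Pou4f1, of the habenula, at most 5.21. Gbx2, of thalamus and striatal interneurons, was at 9.04 in bc204, 1.99 in bc208 and at most 0.84 in the others. Of the 24 members below the mean of 10, 13 had a mean of at least 1, and none of these was called in any of the 3 comparisons when they were added (lowest adjusted p = 0.228 in limma and 0.321 in edgeR's quasi-likelihood test, the latter chosen after seeing the data).

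The subpallial members Isl1, Six3 and Lhx8 were high in 2 libraries of different genotypes, and these genes were singled out after their values were seen. Isl1 was at 6.76, 9.47 and 17.9 in Fezf2+/+, at 139, 20.7, 4.17 and 2.49 in Fezf2-/- and at 38.8 and 2.19 in Fezf2-EnR. Six3, whose exons overlap the antisense gene Six3os1, was at 12.7, 9.47 and 10.5 in Fezf2+/+, 96.4, 17.4, 5.21 and 17.4 in Fezf2-/- and 58.7 and 8.74 in Fezf2-EnR. Lhx8 was at 0, 2.10 and 2.11 in Fezf2+/+, 34.1, 2.18, 0 and 0.83 in Fezf2-/- and 11.9 and 3.28 in Fezf2-EnR. In all 3 genes bc204 was highest and bc208 next, while the remaining Fezf2-/- and Fezf2-EnR libraries lay within or near the Fezf2+/+ values. Gbx1, the other subpallial member, did not share this order. It was at 6.03 in bc204, 5.46 in bc209 and 1.0 in bc208, and at most 1.66 in the other libraries. Neither Isl1 nor Six3 passed the test in any comparison, and Lhx8 and Gbx1 were not tested.

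The same libraries were high in striatal markers. The dopamine receptor gene Drd2 was at 174 in bc204 and 102 in bc208, against 15.3 to 41.4 in the other 7 libraries. Of the 6 striatal markers, 4 (Drd2, Tac1, Penk and Adora2a) were highest in bc204 and next in bc208. Rgs9 was highest in bc204 (351) and next in bc206 (346), with bc208 at 271. Ppp1r1b was highest in bc202 (1084), with bc208 at 973 and bc204 at 858. In the other Fezf2-/- libraries Ppp1r1b was at 396, 431 and 272, and in bc209 at 684. None of the 6 was at 0, and 0 of 6 were called in any comparison. Their part in the levels of Isl1, Six3 and Lhx8 was not tested. The libraries bc204, bc207 and bc208 are the 3 of litter m3, and the part of litter was not tested.

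Over all 45 members, 6 were highest in bc204 and next in bc208, among them Isl1, Six3, Lhx8, Irx3 and Gbx2. For the 21 tested, this was 2 (Isl1 and Six3), and for all genes tested it was 2.14%. Without bc204 and bc208, Isl1 fell below a mean of 10, and the log2 fold change of Six3 in Fezf2-/- against Fezf2+/+ was 0.12 (SE 0.44), against 0.85 (SE 0.82) with them, neither passing the test. Emx1 was the only member called in that comparison with them and none was called without them.

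**Figure D4:**
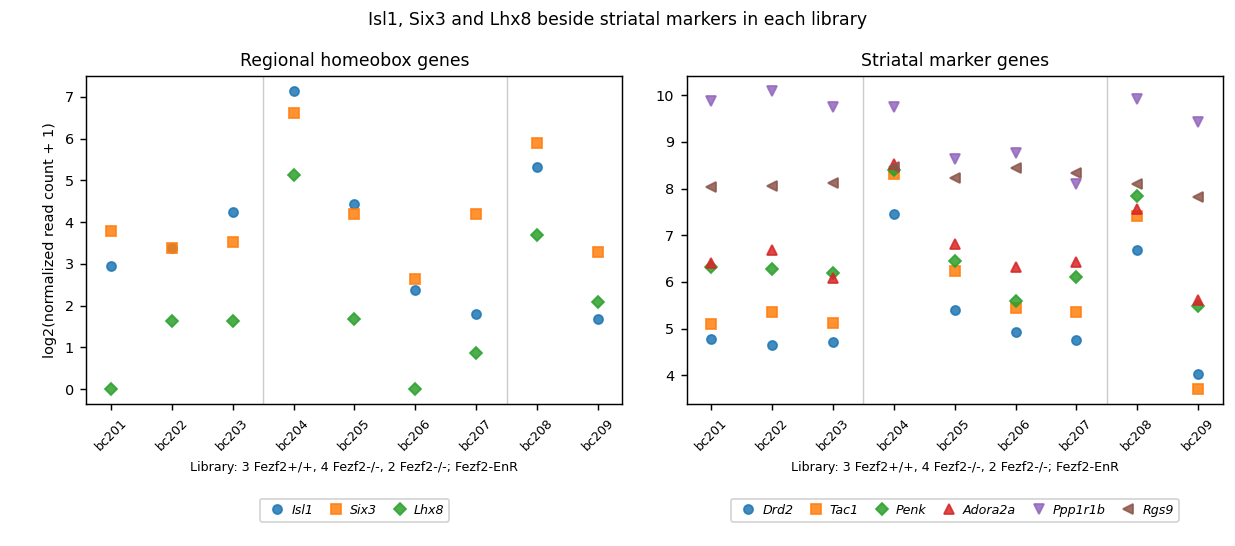
Levels of Isl1, Six3 and Lhx8 (left) and of 6 striatal markers (right) in each library, as log2(normalized read count + 1), with lines between the genotypes. Isl1, Six3 and Lhx8 are highest in bc204 and next in bc208, as are 4 of the 6 markers.

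Of 15 LIM homeodomain cofactors and Groucho co-repressors, all tested, 2 were called lower in Fezf2-/- than in Fezf2+/+, against 0.858% of all genes. The same 2 were called higher in Fezf2-EnR than in Fezf2-/-, against 0.766% of all genes. None was called in Fezf2-EnR against Fezf2+/+, where 0.117% of all genes were. The 2 were Tle4 and Ldb2. The paper reports TLE4 protein and Ldb2 RNA as reduced in Fezf2-/- and restored by Fezf2-EnR. The list was chosen with earlier results of these data known. Tle4, a Groucho gene of corticothalamic neurons, was at 2861, 2642 and 2755 in Fezf2+/+, 978, 977, 820 and 990 in Fezf2-/- and 2806 and 3664 in Fezf2-EnR. Ldb2, a LIM domain-binding cofactor, was at 3855, 3332 and 3255 in Fezf2+/+, 2644, 2574, 2793 and 2420 in Fezf2-/- and 3399 and 3835 in Fezf2-EnR. The log2 fold change of Ldb2 was -0.41 (SE 0.08, limma, adjusted p = 0.0361) in Fezf2-/- against Fezf2+/+ and 0.47 (SE 0.09, limma, adjusted p = 0.0395) in Fezf2-EnR against Fezf2-/-. For both genes, every Fezf2-/- library was below every library of the other genotypes. The median log2 fold change over the 15 genes was 0.08 in Fezf2-/- against Fezf2+/+.

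Among 62 other homeobox genes in the table, 43 were tested. Of these, 2 (Pax7 and Zfhx4) were called higher in Fezf2-/- than in Fezf2+/+ and 0 lower, against 0.858% of all genes called. Pax7, a factor of the dorsal midbrain and of muscle precursors, was at 0 in all 3 Fezf2+/+ libraries, 39.2, 81.7, 66.7 and 42.4 in Fezf2-/- and 0 and 1.09 in Fezf2-EnR. In Fezf2-EnR against Fezf2-/-, Pax7 and Msx3 were called lower and Tshz3 higher, against 0.766% of all genes called. In Fezf2-EnR against Fezf2+/+, 0 of the 43 were called, against 0.117% of all genes. The median log2 fold changes over the 43 genes were 0.18, 0.03 and 0.30 in the 3 comparisons.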

How the data were processed

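Cortical RNA-seq libraries from 9 mice were grouped by the genotype in the labels. The values the authors deposited are a normalized signal, read counts divided by a size factor, for 24624 genes. The labels name STAR, Bowtie, DESeq and mm10. The annotation release, the counter and the use of strand are not given in the sources used here. log2(value + 1) was tested with limma 3.58.1 (eBayes with a trend, R 4.3.3) for 16197 genes whose mean was 10 or more, with 1 coefficient per genotype, all 9 libraries in 1 fit and Benjamini-Hochberg adjustment over all genes tested. Fold changes are on that scale, which understates changes of low genes.

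Dividing by what 1 read is worth gave whole numbers, within 0.1 read, for 100.0% of the values in all 9 libraries, and these reads were tested with edgeR 4.0.16 and DESeq2 1.42.0. Replicate libraries of a genotype differed by more than sampling noise (chi-square per degree of freedom 4.23 to 14.5). The labels give 1 mouse per library, so p-values measure the spread between these mice.

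Positions, exon lengths and overlaps came from GENCODE M21 (GRCm38, the same build as mm10), to which all 45 members matched. A further 16 genes of the name pattern in that annotation were not analysed here. The fit was tested on simulated data of 16197 genes, in which 200 were given larger changes than that of Emx1. All 200 were called, and 6.1% of the calls were unchanged genes. The simulated data held no litter effect and no change as small as that of Emx1, so they do not show how such changes are called. The members and lists were chosen with earlier results of these data known. Named were every member called, those with a mean of at least 200, and in each comparison the 5 with the largest change among those whose groups did not overlap. Others are given by level. A few genes are not reported here, though counts over the members hold them. Litter was tried as a block. Alternatives were other pseudocounts, filters, scalings, tools and litters, and each library left out.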

Additional observations from a re-analysis of the deposited data

Results flagged for a closer look

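In 4 of 20 tested members, 1 of the 4 Fezf2-/- libraries lay far from the other 3 by Dixon's 95% gap criterion. Chance gives about 1 such group in 20 for each gene. Isl1 was at 139 and Six3 at 96.4 in bc204, each with a gap of 0.866 of the range, and the striatal markers were high in that library as well. Pou3f2 was at 3842 in bc206, a gap of 0.843 of the range, above the other 3 Fezf2-/- libraries but within the Fezf2+/+ values. Lhx2 was at 2420 in the same library, a gap of 0.85 of the range, below every other library. The causes were not tested.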

How the results depend on the processing

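The count of members called in Fezf2-/- against Fezf2+/+ was 1 (Emx1) in the reported fit and 0 to 1 with each library left out, 0 within litter m1 alone, 0 without bc204 and bc208 (chosen after seeing the data) and 8 at an unadjusted p under 0.05. In Fezf2-EnR against Fezf2-/- it was 0, and 0 to 2 with each library left out (Pou3f2 and Pou3f3 without bc208), 3 by DESeq2, 2 without bc204 and bc208 and 7 at an unadjusted p. In Fezf2-EnR against Fezf2+/+ it was 0, and 0 to 2 with each library left out (Pou3f2 among them without bc208, Pou2f1 without bc203), 1 by DESeq2 and 8 at an unadjusted p. The counts were otherwise the same with a pseudocount of 0.1 or 10, other filters, TMM or median-ratio scaling, the 2 groups alone, robust eBayes, edgeR and litter as a block, under which Emx1 kept its call (log2 fold change -0.46, limma, adjusted p = 0.0463). Library numbers are not shared between genotypes, so litter was the only block. The count over all genes also moved. In Fezf2-/- against Fezf2+/+ it was 139 in the reported fit, 315 by DESeq2 and 221 in the 2 groups alone, and in Fezf2-EnR against Fezf2-/- 124, 454 and 67. In Fezf2-EnR against Fezf2+/+ it was 19, 641 by DESeq2, 12 in the 2 groups alone and 32 with litter as a block. With each library left out these counts ran from 66 (without bc201) to 218 (without bc209), from 21 (without bc209) to 1085 (without bc208) and from 8 (without bc209) to 492 (without bc208), and without bc204 and bc208 they were 127, 788 and 275.

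Of 996 log2 fold changes of 14 named members under the alternatives, 17 changed sign, none of them called. With litter as a block, these were Pou6f1 at 0.01 against Fezf2-/- and 0.12 against Fezf2+/+ and Lhx9 at 0.17 against Fezf2-/-, all for Fezf2-EnR. Within litter m3, Fezf2-EnR against Fezf2-/- gave -0.09 for Pou3f4 and 0.19 for Lhx9. In Fezf2-/- against Fezf2+/+, Pou6f1 was at -0.01 by DESeq2 and Pou2f2 at 0.01 within litter m1. Without bc204 and bc208, Pou2f2 was at -0.04 against Fezf2-/- and -0.05 against Fezf2+/+ in Fezf2-EnR. With each library left out, the ranges that crossed 0 were -0.17 to 0.09 for Pou6f1 and -0.22 to 0.12 for Lhx1 in Fezf2-/- against Fezf2+/+, -0.33 to 0.59 for Lhx9 in Fezf2-EnR against Fezf2-/-, and -0.07 to 0.35 for Pou3f3, -0.02 to 0.21 for Lhx2 and -0.05 to 0.24 for Pou2f2 in Fezf2-EnR against Fezf2+/+. Litter m2 alone holds 1 library of each of its genotypes and gives values without a test. The cause of these shifts was not tested.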
